A study of Mus musculus with 13 samples.

Results

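Beta and non-beta islet cells that both carry the knockout label were compared across all genes, in 6 of the 13 RNA-seq libraries of the series. The libraries were chosen by genotype label and sorted fraction, with 3 of knockout beta cells and 3 of knockout non-beta cells. The 7 libraries of the same fractions from control mice, 4 of beta and 3 of non-beta cells, served only to show where the knockout fractions differed from the control fractions. The question was which differences of identity stood between the fractions under the knockout label.

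Knockout mice were Txnrd1 fl/fl, carried Cre at one Ins1 allele (Ins1 Cre/+) and were homozygous for the Rosa26 mTmG reporter. Control mice were Txnrd1 +/+ with the same Ins1 Cre/+ and Rosa26 mTmG/mTmG alleles, so every group carries Cre, the reporter and a single unmodified Ins1 allele. The reporter marks all cells with membrane Tomato and switches to membrane GFP where Cre has acted. Live GFP+ cells were sorted as beta cells and live Tomato+ cells as non-beta cells, from islets of C57BL/6 mice aged 10 to 20 weeks that had been kept overnight in culture at 5.5 mM glucose and dispersed. Ins1 Cre drives both the colour switch and the deletion, so non-beta cells under the knockout label are cells in which the switch did not occur. Low-input full-length libraries (SMART-Seq, 5 to 10 ng RNA) were read in pairs. The labels do not say that the libraries came from separate animals, and p-values then measure only the spread between these samples.

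The islet of Langerhans holds beta cells, which make insulin, together with alpha, delta, gamma and epsilon cells, which make glucagon, somatostatin, pancreatic polypeptide and ghrelin. Transcription factors such as PDX1, MAFA and NKX6-1 maintain the beta-cell programme, and factors such as those of the Iroquois family mark alpha cells. Mature beta cells also keep silent a group of widely expressed genes, called disallowed genes, whose products would disturb glucose-regulated insulin release. Txnrd1 encodes the cytosolic thioredoxin reductase, a selenoprotein that keeps thioredoxin reduced, and NRF2 is the transcription factor that raises antioxidant genes under oxidative stress.

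The 6 libraries held between 29.0 and 36.8 M counts, and all 13 between 28.7 and 36.8 M. Levels are given as CPM, the count scaled to a common library total with composition scaling by TMM, unless stated otherwise. Within the knockout fractions the Spearman correlation between libraries ran from 0.9658 to 0.9939 over 15177 genes. Xist (18.9 to 55.3 CPM) and the Y-linked Ddx3y (7.40 to 21.1 CPM) were both present in each of the 13 libraries. The libraries numbered 3 of both knockout fractions held more transcripts of the other fraction than their replicates. Gcg made up 0.0583, 0.0503 and 0.390% of the counts in knockout beta libraries 1, 2 and 3, against 19.9, 19.4 and 18.8% in knockout non-beta libraries. Ins2 made up 21.2, 18.5 and 13.6% in knockout beta libraries, against 0.195, 0.159 and 2.46% in knockout non-beta libraries. Many results that rest on these 2 libraries are given with and without them, and further label differences that rest on them are listed in the closing section. In bulk samples of this kind, fewer cells of a type and less RNA per cell cannot be told apart.

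Txnrd1 stood higher in knockout beta cells than in knockout non-beta cells, although its deletion is what the knockout label of the sorted beta cells names. Its level was 605.7, 599.5 and 540.4 CPM in knockout beta libraries, against 240.5, 212.1 and 244.4 CPM in knockout non-beta libraries. The fractions did not overlap, and the log2 fold change was 1.28, with a standard error of 0.12 (edgeR adjusted p = 7.6e-05). In control cells the same contrast was 0.17 (edgeR adjusted p = 0.132), and the difference between the labels was 1.15 (edgeR adjusted p = 0.0021). The count covers the whole gene (chromosome 10, 82833951 to 82897712, + strand, GRCm38), and the floxed exons are not given in the labels, so it does not check the label.

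The fractions differed in a large part of the transcriptome. Of 18775 genes that passed the filter on low counts in these 6 libraries, edgeR called 7992 at an adjusted p below 0.05, which is 42.6%. Knockout beta cells were higher for 3577 of them (19.1% of those tested) and lower for 4415 (23.5%). At least 2-fold, 1519 genes (8.09%) were higher and 2991 (15.9%) lower, and at least 16-fold, 63 (0.336%) were higher and 1303 (6.94%) lower. The libraries of the 2 fractions did not overlap for 5241 genes that were higher (27.9%) and 5179 that were lower (27.6%). The median log2 fold change over all tested genes was −0.02.

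A small set of beta-weighted genes made up a large share of the RNA. The 63 genes called at least 16-fold higher took 23.1, 20.2 and 14.8% of all counts in knockout beta libraries, against 0.210, 0.179 and 2.66% in knockout non-beta libraries. The 1303 genes called at least 16-fold lower took 0.147, 0.130 and 0.657% in knockout beta libraries, against 32.1, 31.5 and 27.2% in knockout non-beta libraries. Those shares describe the genes the test had picked and are no separate evidence. Of the genes at least 2-fold apart, 1117 higher and 2530 lower ones were protein-coding, among 14365 protein-coding genes tested. For long non-coding RNAs these numbers were 267 and 325 of 2270.

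The hormone genes are the defining products of the fractions, and the 250 bases before the annotated start of 3 of them are shown so that their proximal promoters can be set side by side. They come from the RefSeq promoter table (GRCm38.p6), which held 3 of the 4 hormone genes looked up and no entry for Ins2. Ins1 lies at chr19:52264047-52264296 on the + strand, Gcg at chr2:62483654-62483903 on the − strand and Sst at chr16:23890845-23891094 on the − strand. Capitals mark the E-box letters CATCTG or CAGATG, which read as one motif on both strands, and the palindromic cyclic AMP response element TGACGTCA.
Ins1: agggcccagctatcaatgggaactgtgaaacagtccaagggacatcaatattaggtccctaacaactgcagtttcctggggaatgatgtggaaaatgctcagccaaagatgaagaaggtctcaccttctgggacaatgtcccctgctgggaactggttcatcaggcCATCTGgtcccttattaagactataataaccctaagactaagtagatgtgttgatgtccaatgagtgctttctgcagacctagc
Gcg: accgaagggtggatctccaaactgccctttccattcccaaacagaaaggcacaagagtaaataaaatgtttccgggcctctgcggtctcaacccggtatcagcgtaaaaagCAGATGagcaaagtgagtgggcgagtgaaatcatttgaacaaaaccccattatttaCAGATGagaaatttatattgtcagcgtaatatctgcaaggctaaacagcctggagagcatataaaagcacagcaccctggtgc
Sst: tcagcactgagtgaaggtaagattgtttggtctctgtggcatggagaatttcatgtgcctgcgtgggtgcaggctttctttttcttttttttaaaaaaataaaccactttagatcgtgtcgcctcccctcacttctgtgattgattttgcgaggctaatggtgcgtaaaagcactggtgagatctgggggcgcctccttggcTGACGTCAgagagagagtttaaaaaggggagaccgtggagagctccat
Ins1 held 1 such E-box and Gcg held 2, whereas Sst held none and had 1 cyclic AMP response element. Among 32851 promoter windows of the table, 14.4% held the E-box letters and 1.55% the cyclic AMP response element. The letters TAAT or ATTA, the core bound by homeodomain factors such as PDX1, were present 3 times in Ins1, 2 times in Gcg and 1 time in Sst, and in 54.9% of all windows. These are matches of letters and not shown to be bound sites.

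All hormone transcripts but Ghrl separated the knockout libraries of the 2 fractions without overlap. So did 27.9% of all tested genes on the higher and 27.6% on the lower side, so non-overlap is not particular to hormones. All 4 secreted products of beta cells were called higher in knockout beta cells, with a median log2 fold change of 4.15. Of the 5 hormones of other islet cells 4 were called lower, with a median of −6.51 over the 5. Without both libraries numbered 3 these medians were 6.804 and −7.38. Ins2, the main insulin gene, stood at 231300, 187400 and 124300 CPM in knockout beta libraries, against 1970, 1559 and 23690 CPM in knockout non-beta libraries. The groups did not overlap, but library 3 was the lowest beta and the highest non-beta library. The log2 fold change was 4.25, with a standard error of 1.05 (edgeR adjusted p = 0.012).

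Ins1, the second insulin gene, stood at 17350, 14550 and 9127 CPM in knockout beta libraries, against 107.1, 149.3 and 1623 CPM in knockout non-beta libraries (log2 fold change 4.38, edgeR adjusted p = 0.0095). Ucn3, a peptide of mature beta cells that acts on delta cells, stood at 235.2, 256.1 and 236.5 CPM in knockout beta libraries, against 2.57, 1.79 and 37.7 CPM in knockout non-beta libraries (4.05, edgeR adjusted p = 0.014). Both were highest, among non-beta libraries, in library 3. Iapp, which encodes the amyloid peptide released with insulin, behaved differently, with 39810, 34440 and 23250 CPM in knockout beta libraries, against 4854, 4982 and 5550 CPM in knockout non-beta libraries. Its non-beta level was thus similar in all 3 libraries, and its log2 fold change was 2.62, with a standard error of 0.21 (edgeR adjusted p = 4.7e-05).

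Gcg, the glucagon gene, stood at 634.4, 510.2 and 3575 CPM in knockout beta libraries, against 201000, 190300 and 181300 CPM in knockout non-beta libraries. Sst, the somatostatin gene, stood at 19.9, 26.7 and 188 CPM in knockout beta libraries, against 10890, 12900 and 5884 CPM in knockout non-beta libraries. Both lay far apart between fractions, and beta library 3 was the highest beta library for both. The log2 fold changes were −6.92 for Gcg (standard error 0.88, edgeR adjusted p = 0.0004) and −6.97 for Sst (1.02, 0.00082). Ppy, the pancreatic polypeptide gene, fell by 6.51 and its relative Pyy by 6.13 (edgeR adjusted p = 5.5e-05 and 4.4e-05).

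Ghrl, the ghrelin gene of the rare epsilon cells, did not pass the test in the knockout fractions. It stood at 0.172, 0.0552 and 1.71 CPM in knockout beta libraries, against 8.503, 7.197 and 0.327 CPM in knockout non-beta libraries, so that library 3 ran against the other pairs (log2 fold change −2.98, edgeR adjusted p = 0.075). Leaving out knockout beta library 3 gave −5.62 and passed, as did leaving out knockout non-beta library 3, with edgeR adjusted p between 0.0069 and 0.18 over the single omissions. Without both libraries numbered 3 it was −6.18 (edgeR adjusted p = 2.5e-06).

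Per length, Ins2 led the knockout beta fraction at a mean of 135300 RPKM, followed by Iapp at 32780 and Ins1 at 12620 RPKM. Gcg led the knockout non-beta fraction at a mean of 129700 RPKM, followed by Ppy at 90610, Pyy at 23460 and Sst at 13890 RPKM. RPKM is the authors' own value, a count divided by gene length and library total. Across the 3 non-beta libraries Ppy ran from 74260 to 98860 RPKM and Sst from 8465 to 18250 RPKM, the lowest of each in library 3.

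**Figure D1:**
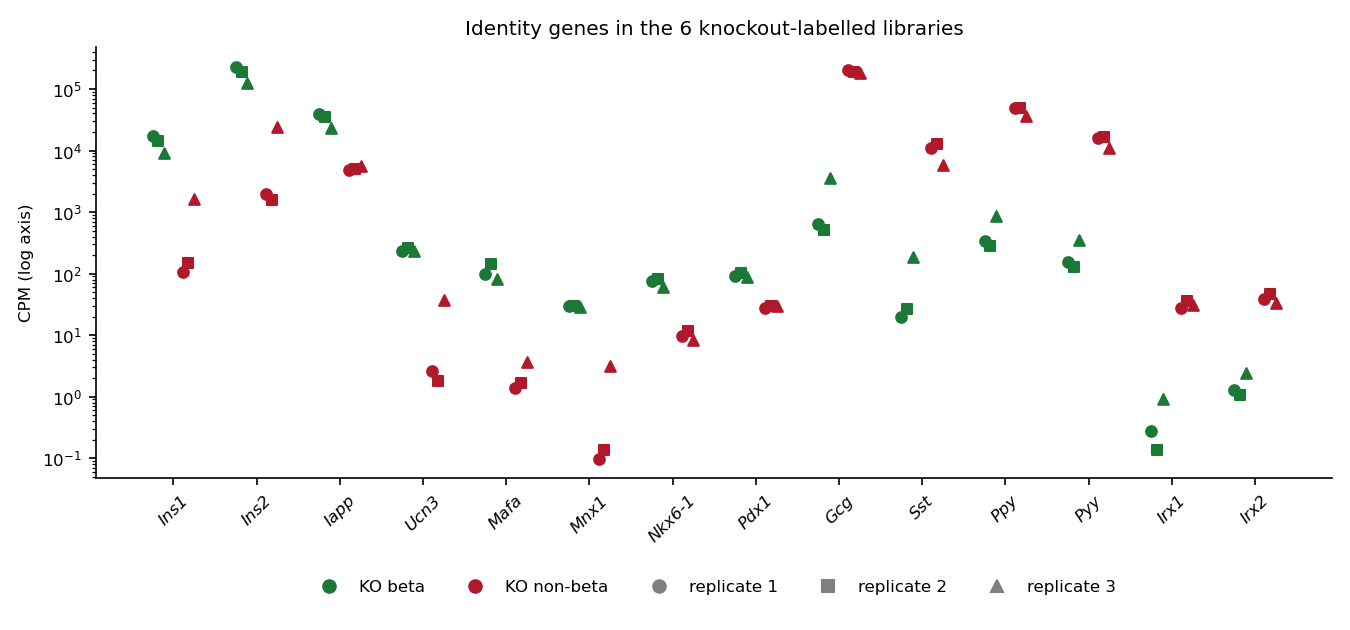
Level of 14 hormone and transcription factor genes in the 6 knockout-labelled libraries, in CPM on a log axis, with knockout beta in green left of knockout non-beta in red and a marker shape for each replicate number. Triangles, the libraries numbered 3, lie nearest to the other fraction for Ins1, Mnx1, Gcg and Sst, and no gene shown overlaps between the fractions.

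Iapp apart, the size of the hormone differences rested on the 2 libraries numbered 3, while, Ghrl apart, their direction and call did not. Leaving out knockout non-beta library 3 alone raised the log2 fold change of Ins2 to 6.64, of Ins1 to 6.69 and of Ucn3 to 6.75. Leaving out knockout beta library 3 alone moved Gcg to −8.44, Sst to −8.78, Ppy to −7.25 and Pyy to −6.75. Without both, Ins2 was at 6.84 (standard error 0.22) and Gcg at −8.46 (0.22), with edgeR adjusted p = 4.4e-08 and 1.5e-08. The control fractions, for comparison, gave 5.79 for Ins2 and −8.34 for Gcg. With all libraries the knockout contrast was thus the smaller for Ins2, and without both numbered 3 it was the larger. The difference between labels was not called in either case, with edgeR adjusted p = 0.63 for Ins2 with all libraries and 0.29 without both.

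Over the whole transcriptome, leaving out both libraries numbered 3 gave 8824 called genes, 4016 higher and 4808 lower, and 7401 of the 7992 genes called with all libraries were among them. Iapp (2.87), Pdx1 (1.69) and Nkx6-1 (2.86) moved little on this omission. Mnx1 moved most among the plotted genes.

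**Figure D2:**
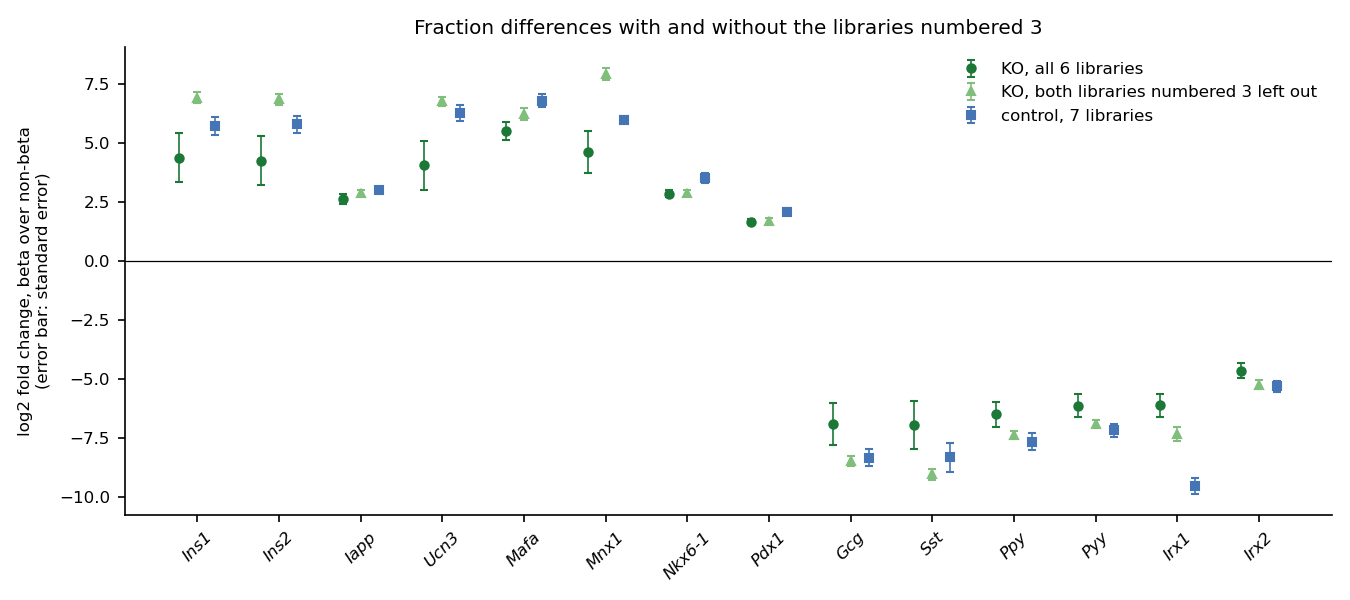
Log2 fold change of beta over non-beta cells for the same 14 genes, with its standard error, for all 6 knockout libraries (dark green circles), for the 4 left without both libraries numbered 3 (light green triangles) and for the 7 control libraries (blue squares). The circle of Ins2 lies at 4.25 and its triangle at 6.84, on either side of the control value of 5.79, while the 3 values of Pdx1 lie between 1.66 and 2.09.

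Transcription factors of beta cells were higher in knockout beta cells throughout the list. Of the 8 listed factors 7 passed the filter, and all 7 were called higher, with a median log2 fold change of 2.77. The remaining one, Pax4, a factor of endocrine development, had no count in any library. Mafa, which activates insulin transcription in mature beta cells, stood at 97.4, 141.1 and 80.7 CPM in knockout beta libraries, against 1.40, 1.69 and 3.66 CPM in knockout non-beta libraries. It had the largest rise of all genes that met the naming rule (log2 fold change 5.51 with a standard error of 0.39, edgeR adjusted p = 3.3e-05). Control fractions gave 6.78, and the difference between labels was not called (−1.23, edgeR adjusted p = 0.26).

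Mnx1, which represses non-beta fates, stood at 29.7, 30.0 and 28.4 CPM in knockout beta libraries, against 0.0977, 0.135 and 3.20 CPM in knockout non-beta libraries (log2 fold change 4.62, edgeR adjusted p = 0.0032). Its beta level was even, and knockout non-beta library 3 alone set the size of the contrast, which was 7.90 without that library. Without it the difference between labels for Mnx1 was 1.95 (edgeR adjusted p = 0.015). Without both libraries numbered 3 the difference between labels for Mnx1 reached 1.97 (edgeR adjusted p = 0.023), against −1.32 (edgeR adjusted p = 0.64) with all libraries. Nkx6-1, a homeodomain factor of beta cells, rose by 2.85 and Pdx1, the pancreatic master factor, by 1.66 (standard errors 0.15 and 0.10, edgeR adjusted p = 1.8e-05 and 2.4e-05).

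Mlxipl, the glucose-responsive factor ChREBP, rose by 2.77, and Glis3, which acts on the insulin gene, rose by 1.32 (edgeR adjusted p = 0.00012 and 0.00024). Esrrg, a nuclear receptor of beta-cell maturation, stood at 4.43, 4.97 and 5.83 CPM in knockout beta libraries, against 2.31, 2.53 and 3.89 CPM in knockout non-beta libraries (0.77, edgeR adjusted p = 0.047). The call of Esrrg ended on leaving out any single library but knockout non-beta library 3, with edgeR adjusted p between 0.0065 and 0.15.

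Alpha-weighted factors showed the reverse. All 6 were tested and called lower in knockout beta cells, with a median of −5.79, or −6.77 without knockout beta library 3. Irx1, an Iroquois factor, stood at 0.274, 0.138 and 0.907 CPM in knockout beta libraries, against 27.1, 35.9 and 30.9 CPM in knockout non-beta libraries. Its libraries did not overlap between the fractions, and beta library 3 was the highest beta library. Irx1 and its relative Irx2 fell by 6.12 and 4.66 (edgeR adjusted p = 4.7e-05 and 3.3e-05), Irx1 by 7.31 without knockout beta library 3. The POU factor Pou3f4 fell by 5.56 (edgeR adjusted p = 0.00013), and by 6.82 without knockout beta library 3.

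Factors used by several endocrine types lay closer together. Of 16 listed, 15 were tested, 5 were called higher in knockout beta cells, 2 lower and 8 were not called, with a median of 0.32. Over all tested genes 19.1% were called higher and 23.5% lower. The endocrine differentiation factors Insm1 (log2 fold change 1.43, edgeR adjusted p = 0.0044) and Nkx2-2 (0.73, 0.0041) rose. Tshz1 (1.23, 0.00028) and Scrt1 (2.60, 0.0047), both zinc-finger factors, rose as well. St18 rose by 0.49 (edgeR adjusted p = 0.017), a call that ended at 0.051 without knockout non-beta library 1. Isl1, a LIM factor of all islet hormone cells, fell by 1.14 (0.00014), and Fev, a factor known from serotonin neurons and endocrine progenitors, fell by 5.00 (1.6e-05).

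Pax6 and Neurod1, general factors of islet hormone cells, were not called (0.32 and 0.26, edgeR adjusted p = 0.074 and 0.13). Both passed without knockout non-beta library 2 (edgeR adjusted p = 0.047 and 0.044). Foxa2 stood at 86.6, 87.8 and 67.1 CPM in knockout beta libraries, against 83.7, 91.1 and 73.2 CPM in knockout non-beta libraries, which overlapped. Rfx3, Rfx6, Myt1 and Hnf4a, further islet factors, lay between −0.05 and 0.36 and were not called, and Foxa1 did not pass the filter.

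Genes of glucose sensing and stimulus-secretion coupling were mostly higher in knockout beta cells. Of 18 tested, 13 were called higher and 1 lower, with a median of 1.02, beside 19.1% and 23.5% of all tested genes. Control fractions gave 15 higher and 1 lower, with a median of 1.48. Slc2a2, the main glucose transporter of mouse beta cells, stood at 49.4, 69.9 and 57.6 CPM in knockout beta libraries, against 2.38, 1.66 and 11.4 CPM in knockout non-beta libraries. Its log2 fold change was 3.47 (edgeR adjusted p = 0.0027), against 5.56 in control fractions, and the difference between labels was not called (−2.05, edgeR adjusted p = 0.20). Without knockout non-beta library 3 it was 4.83.

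Pcx, the pyruvate carboxylase that feeds the mitochondrial cycle, stood at 153.2, 165.9 and 154.1 CPM in knockout beta libraries, against 12.3, 11.7 and 14.1 CPM in knockout non-beta libraries (3.59, standard error 0.13, edgeR adjusted p = 9.4e-06). The libraries of each fraction lay close together. Control fractions gave 4.48, and the difference between labels was −0.85 (edgeR adjusted p = 0.022). That call ended without control non-beta library 2, without knockout beta library 1 and without knockout beta library 3, with edgeR adjusted p between 0.011 and 0.082 over all omissions.

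Receptors that amplify insulin release stood higher as well. Glp1r, the receptor of the incretin GLP-1, had 662.4, 847.6 and 851.5 CPM in knockout beta libraries, against 36.3, 34.6 and 102.3 CPM in knockout non-beta libraries (3.73, edgeR adjusted p = 0.00031, and 4.43 without knockout non-beta library 3). Gipr, the receptor of the incretin GIP, rose by 1.93 and Ffar1, a fatty acid receptor, by 2.37 (edgeR adjusted p = 0.0001 and 0.00012). The ion channel Trpm5 (4.10), the prolactin receptor Prlr (4.01) and the islet glucose-6-phosphatase subunit G6pc2 (3.93) were called too (edgeR adjusted p = 0.0016, 0.0042 and 0.020). These 3 lay at 5.46, 5.92 and 6.71 without knockout non-beta library 3. Adcy5, an adenylyl cyclase, was the one member called lower, with levels of 0.0518 to 0.274 CPM in knockout beta libraries and 0.653 to 1.79 CPM in knockout non-beta libraries (−2.92, edgeR adjusted p = 0.0046). Leaving out knockout beta library 1 moved Adcy5 to −3.54.

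Of 13 genes of prohormone processing and granule cargo, 3 were called higher and 4 lower, with a median of −0.05. That count lay near the background of 19.1% higher and 23.5% lower over all tested genes. Pcsk1, the convertase PC1/3 that cleaves proinsulin, stood at 208.4, 224 and 232.4 CPM in knockout beta libraries, against 16.4, 17.0 and 49.0 CPM in knockout non-beta libraries (2.97, edgeR adjusted p = 0.00072, and 3.69 without knockout non-beta library 3). Chga, chromogranin A, rose by 1.09 (edgeR adjusted p = 0.0058). Slc30a8, the granule zinc transporter, stood at 232, 254.1 and 260.6 CPM in knockout beta libraries, against 122.4, 129 and 174.8 CPM in knockout non-beta libraries (0.77, edgeR adjusted p = 0.006).

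Scg5, a chaperone of the convertase PC2, fell by 1.18 and Pcsk1n, an inhibitor of PC1/3, by 1.28 (edgeR adjusted p = 0.00012 and 0.0027). Of 12 genes of exocytosis, 7 were called higher and 1 lower, with a median of 0.45, beside 19.1% and 23.5% of all tested genes. Control fractions gave 10 higher and 1 lower, with a median of 0.72. Sytl4, the granule protein granuphilin, rose by 4.29 (edgeR adjusted p = 0.0092, and by 6.84 without knockout non-beta library 3). Syt13, a synaptotagmin, rose by 1.11 and the granule GTPase Rab3a by 1.01 (0.00015 and 0.00037). Stx1a, a membrane fusion protein, stood at 12.35, 12.33 and 12.02 CPM in knockout beta libraries, against 35.1, 36.3 and 24.3 CPM in knockout non-beta libraries (−1.42, edgeR adjusted p = 0.00024).

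Disallowed genes were lower in knockout beta cells. Of 14 listed, 13 passed the filter and 12 were called lower, with a median of −4.47, or −5.51 without knockout beta library 3. Among all tested genes 23.5% were called lower. Rest, the repressor of neuronal genes, stood at 0.240, 0.221 and 0.259 CPM in knockout beta libraries, against 5.25, 5.00 and 4.31 CPM in knockout non-beta libraries (−4.35, standard error 0.26, edgeR adjusted p = 2e-05). The thioesterase Acot7 (−6.43), the microsomal transferase Mgst1 (−7.20) and the ornithine aminotransferase Oat (−3.98) followed the same direction (edgeR adjusted p = 2.7e-05, 2.8e-05 and 3e-05). Mgst1 lay at −7.97 without knockout beta library 3.

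Ldha, which makes lactate from pyruvate, varied widely within each fraction, with 17.6, 1.49 and 13.1 CPM in knockout beta libraries, against 465.8, 117.4 and 406 CPM in knockout non-beta libraries (−4.99, edgeR adjusted p = 0.0021). Library 2 was the lowest of both fractions. Hk1, a low-Km hexokinase, fell by 5.26 (edgeR adjusted p = 0.00045, and by 7.22 without knockout beta library 3). Cxcl12, a chemokine, was not called (−0.43, edgeR adjusted p = 0.29), and Maf was not tested.

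**Figure D3:**
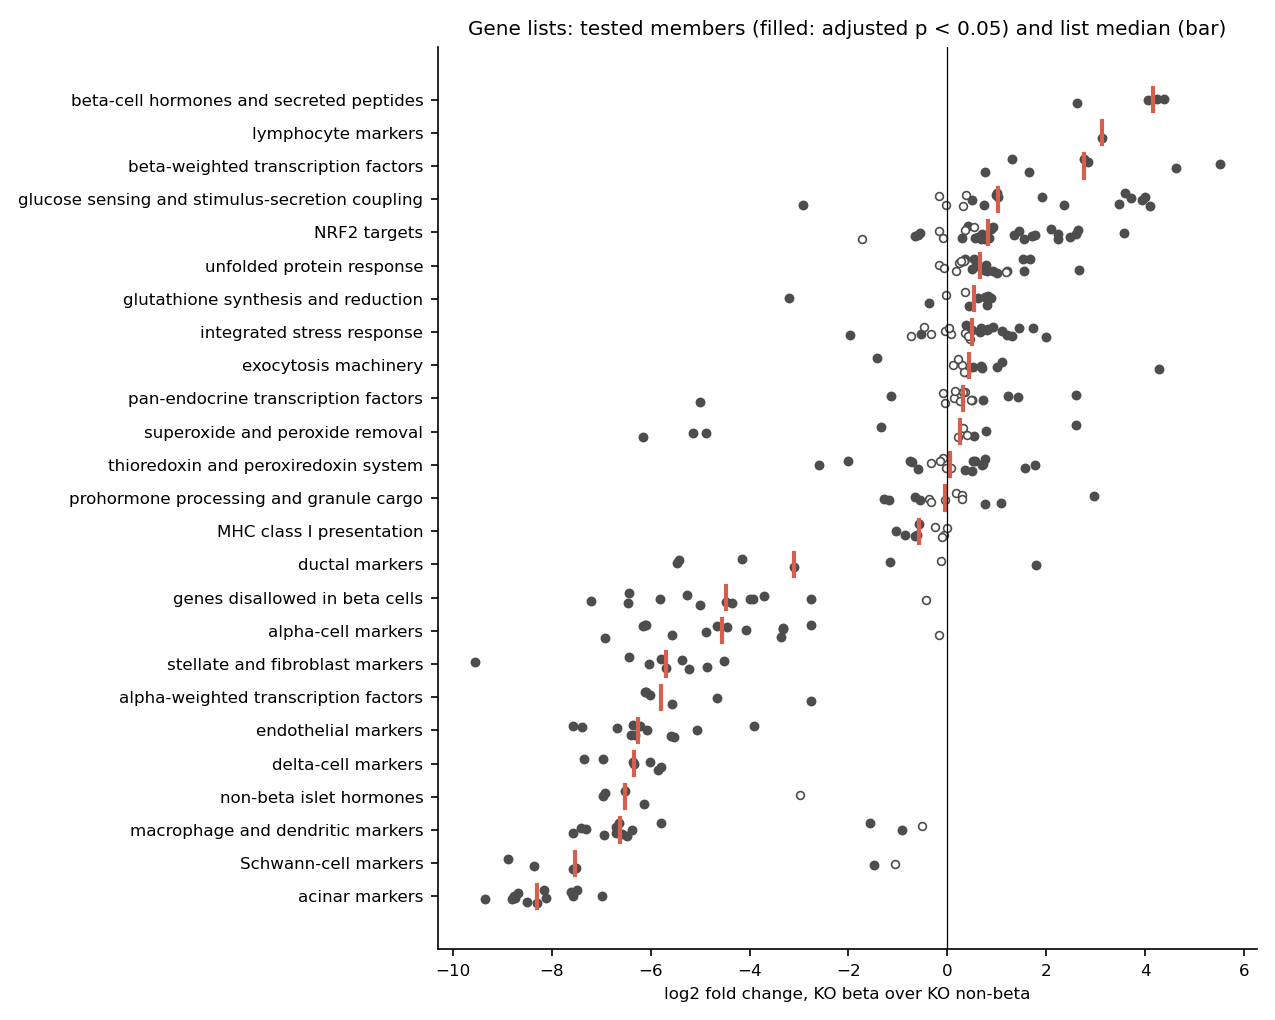
Log2 fold change of knockout beta over knockout non-beta cells for the tested members of the 25 gene lists, ordered by list median, where filled points had an edgeR adjusted p below 0.05, open points did not and the bar is the list median. Hormones and transcription factors of beta cells lie to the right, with medians of 4.15 and 2.77, and markers of acinar, macrophage, delta and endothelial cells lie between −8.30 and −6.26. Positions of genes without a count in a fraction depend on the prior count.

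The non-beta fraction is a mixture, and markers of many cell types were lower in knockout beta cells. All 7 delta-cell markers, all 12 endothelial markers and all 13 acinar markers were tested and called lower, with medians of −6.33, −6.26 and −8.30. Among all tested genes 23.5% were called lower. Without knockout beta library 3 the delta-cell, endothelial and acinar medians were −8.82, −10.13 and −9.42. Of 14 alpha-cell markers 13 were called lower, with a median of −4.56, and the exception was the amino acid carrier Slc7a2 (−0.17, edgeR adjusted p = 0.56). Gc, the vitamin D-binding protein of alpha cells, stood at 21.4, 12.2 and 16.9 CPM in knockout beta libraries, against 265.4, 290.5 and 271.5 CPM in knockout non-beta libraries (−4.08, edgeR adjusted p = 1.7e-05).

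The summed level of the 7 delta-cell markers was 34.9, 45.4 and 230 CPM in knockout beta libraries, against 12620, 14820 and 7124 CPM in knockout non-beta libraries. The 12 endothelial markers summed to 12.3, 12.5 and 42.1 CPM in knockout beta libraries, against 1347, 1346 and 1375 CPM in knockout non-beta libraries. Knockout beta library 3 thus carried more of both than its replicates. The part of other cells or of their RNA in the levels of that library was not tested.

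Acinar markers, digestive enzymes of the exocrine pancreas, summed to 9.47, 11.5 and 61.5 CPM in knockout beta libraries, against 12000, 8600 and 2240 CPM in knockout non-beta libraries. Exocrine transcripts were thus uneven among the non-beta libraries and lowest in library 3. Macrophage and dendritic markers summed to 105.3, 108 and 103.2 CPM in knockout beta libraries, against 1431, 1337 and 1238 CPM in knockout non-beta libraries, and 13 of 14 were called lower. In the beta fraction that sum came mostly from genes read in each of its libraries, such as C1qa (29.6 to 54.1 CPM), Cd68 (35.4 to 42.0 CPM) and Csf1r (12.08 to 12.95 CPM), while Tyrobp and C1qb lay between 0 and 1.27 CPM. The median of the macrophage and dendritic markers was −6.615, or −8.878 without both libraries numbered 3.

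Of 11 stellate and fibroblast markers 9 were tested and all 9 called lower, and of 7 Schwann-cell markers 6 were tested and 5 called lower. Cspg4, a pericyte proteoglycan, had no count in any knockout beta library and 2.70, 3.68 and 2.16 CPM in knockout non-beta libraries. Against a floor of 3 counts over the group it was at least 98.7-fold lower in knockout beta cells. Gfap and Cdh19, markers of islet Schwann cells, had no count either and were at least 42.9-fold and 61.4-fold lower. With these genes at their bounds the Schwann-cell median was −5.68 and the stellate median −5.69, against −7.53 and −5.69 as fitted. Without knockout beta library 3 the fitted stellate median was −8.05.

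Ductal markers did not follow a single direction, and 1 lymphocyte marker was higher in knockout beta cells. Of 8 ductal markers 7 were tested, 5 were called lower and 1 higher, with a median of −3.09. Spp1, osteopontin, fell by 5.42 and the tetraspanin Tspan8 by 3.09 (edgeR adjusted p = 5.8e-05 and 2e-05), Spp1 by 6.09 without knockout beta library 3. Krt7, a keratin of ductal epithelium, was in contrast higher, at 1612, 1566 and 1339 CPM in knockout beta libraries, against 416.7, 413.8 and 433.5 CPM in knockout non-beta libraries (1.79, standard error 0.12, edgeR adjusted p = 2.5e-05). Of 8 lymphocyte markers only Cd79a, a B-cell receptor chain, passed the filter, at 0.803 to 1.55 CPM in knockout beta libraries and 0 to 0.237 CPM in knockout non-beta libraries (3.13, edgeR adjusted p = 0.0052). Leaving out knockout non-beta library 1 or 2 moved it to 2.54 or 3.78.

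Among the 12 genes with the largest rise, apart from the protease genes given below, 5 not on any identity list above encode membrane or secreted proteins. Car10, a carbonic anhydrase-related protein, rose by 5.23 and Cnnm1, a transporter-like membrane protein, by 5.04 (edgeR adjusted p = 0.0004 and 0.00022). Msln, mesothelin, rose by 4.61, Gpr158, an orphan receptor, by 4.44, and Tmem215, a membrane protein, by 4.51 (0.0082, 0.0011 and 0.0053). Without knockout non-beta library 3 these 5 lay at 7.18, 6.29, 7.61, 6.21 and 7.08 in the order given. Fhdc1, a formin-type protein, rose by 4.399 and moved by less than 1.5-fold on any omission (edgeR adjusted p = 3.7e-05).

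The protease genes Tmprss4 (4.58) and Prss53 (4.53) completed the set with Mafa, Mnx1, Ins1 and Sytl4 (edgeR adjusted p = 0.00012 and 0.0039). Without knockout non-beta library 3 they lay at 5.46 and 6.43. Prss53 shares 84.0% and Tmprss4 15.9% of exon bases with other annotated genes, so their counts are uncertain.

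Of the 12 genes with the largest fall, 9 were exocrine. They were Clps, colipase, the lipases Pnlip and Cel, the granule proteins Zg16 and Sycn, and the proteases Cpa1, Try4, Ctrl and Cela2a. Clps stood at 0.480, 0.441 and 0.596 CPM in knockout beta libraries, against 647.5, 425.5 and 116.8 CPM in knockout non-beta libraries (−9.62, edgeR adjusted p = 4.3e-05). Of these, Cpa1, Cel, Pnlip, Try4, Ctrl and Sycn moved by more than 1.5-fold without knockout beta library 3, to between −10.25 and −9.47. Cela2a moved to −9.20, and 17.7% of its exon bases overlap neighbouring genes.

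Mir6969, a microRNA gene that lies inside the span of Clps, had at most 1 count in each knockout beta library and cannot be separated from Clps here. Postn, a matrix protein of fibroblasts, had no count in knockout beta libraries and 10.6, 12.7 and 21.7 CPM in knockout non-beta libraries, at least 518.9-fold lower. Ccr7, a chemokine receptor of dendritic and T cells, had none either, against 18.6, 12.4 and 9.11 CPM in knockout non-beta libraries, at least 462.8-fold lower.

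Most fraction differences of control islets were also present under the knockout label. In control cells edgeR called 10163 of 19014 tested genes (53.5%), 4723 higher (24.8%) and 5440 lower (28.6%) in beta cells. At least 2-fold, 1891 (9.95%) were higher and 3217 (16.9%) lower. Over the 18394 genes tested in all 3 fits, 1483 genes were at least 2-fold higher in the knockout and 1789 in the control contrast, and 1179 were in both. The shared genes were 79.5% of the knockout list and 65.9% of the control list. Among genes at least 2-fold lower in beta cells, 2879 were in the knockout list, 3003 in the control list and 2591 in both, which is 90.0% and 86.3%.

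These 2 contrasts share no library. Counting any call in the same direction, 82.1% of the control list of higher genes and 91.8% of the control list of lower genes were called in the knockout fractions. Without both libraries numbered 3 these shares were 82.9% and 92.3%, and the shared genes were 64.2% and 87.1% of the control lists. A gene missing from one list may still differ there by an amount the test could not separate, and 4 control beta libraries faced 3 of knockout beta cells.

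The test of the difference itself called few genes. Of 19942 genes tested over all 13 libraries, 185 (0.928%) had a fraction difference that depended on the label, 122 with a more positive and 63 with a more negative contrast under the knockout label. Of the control list of higher genes, 28 of 1789 were among them, 26 with a smaller and 2 with a larger contrast in knockout cells. Of the control list of lower genes, 63 of 3003 were among them, 51 with a smaller and 12 with a larger contrast in knockout cells. Without both libraries numbered 3, 154 genes were called, and those from the control list of higher genes split into 11 with a smaller and 12 with a larger contrast. The ratio of smaller to larger contrasts among higher genes thus depended on these libraries. With replicate number as a block in the fit, 50 label differences were called. Of 33 named genes with a called label difference, 16 were not called under that block, and the closing section lists them.

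**Figure D4:**
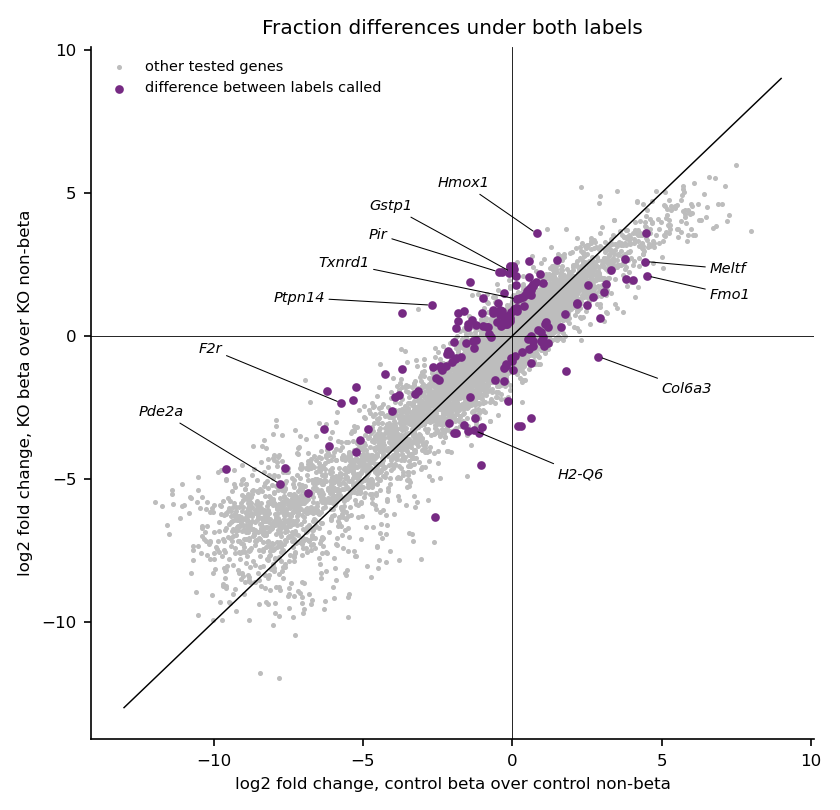
Log2 fold change of beta over non-beta cells for the genes tested in all fits, with knockout fractions on the y axis, control fractions on the x axis and the line of equality. Purple points are genes whose contrast differed between labels (edgeR adjusted p below 0.05). Named examples above the line include Txnrd1 (1.28 against 0.17) and F2r (−2.35 against −5.73), and below it Col6a3 (−0.72 against 2.88).

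NRF2 targets were mostly higher in knockout beta cells, while in control cells about as many were called higher as lower. Of 32 NRF2 targets tested, 24 were called higher and 3 lower in knockout beta cells, with a median of 0.81. The shares over all tested genes were 19.1% and 23.5%. In control beta cells 9 were called higher and 10 lower, with a median of −0.05, beside 24.8% and 28.6% of all tested genes. The difference between labels was called positive for 18 and negative for 1, where 0.612% and 0.316% of all genes were. The list was chosen with its rise in knockout-labelled beta cells already known, so its direction is not independent evidence.

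Gstp1, a glutathione S-transferase, stood at 1092, 873.6 and 733.2 CPM in knockout beta libraries, against 189.2, 155.3 and 211.8 CPM in knockout non-beta libraries (2.23 with a standard error of 0.18, edgeR adjusted p = 4.7e-05). In control cells both fractions lay between 137.6 and 179.7 CPM, and the difference between labels was 2.31 (edgeR adjusted p = 0.00093). Gstp2, its near-identical neighbour on chromosome 19, followed with 2.60 for that difference (edgeR adjusted p = 0.018), and reads may be divided between the 2 genes in error. Pir, an iron-binding nuclear protein, stood at 31.8, 27.9 and 23.0 CPM in knockout beta libraries, against 4.76, 5.24 and 7.05 CPM in knockout non-beta libraries (2.23, and 2.72 for the difference between labels, edgeR adjusted p = 6.5e-05 and 0.0012).

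Srxn1, the sulfiredoxin that repairs over-oxidised peroxiredoxins, rose by 1.77 in knockout beta against knockout non-beta cells, against 0.11 in control fractions (difference 1.70, edgeR adjusted p = 0.0038). Gpx2, a glutathione peroxidase, stood at 334.3, 308.9 and 236.8 CPM in knockout beta libraries, against 35.02, 40.98 and 63.95 CPM in knockout non-beta libraries (2.60, edgeR adjusted p = 9e-05). Its difference between labels was 2.09 (edgeR adjusted p = 0.016) and ended at 0.052 without control non-beta library 2. Ephx1, a microsomal epoxide hydrolase, rose by 2.64 in knockout and by 1.49 in control fractions. The difference of 1.18 (edgeR adjusted p = 0.033) ended on leaving out any of 10 of the 13 libraries, with adjusted p between 0.005 and 0.11 over all omissions.

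Hmox1, the heme-degrading oxygenase, had the largest contrast of the NRF2 list, with 619.7, 310 and 210.8 CPM in knockout beta libraries, against 34.2, 28.9 and 28.7 CPM in knockout non-beta libraries (3.58, edgeR adjusted p = 0.00012). The knockout beta libraries differed widely among themselves, library 1 being the highest, and the control fractions gave 0.81 (edgeR adjusted p = 0.089). The difference of 2.82 (edgeR adjusted p = 0.035) ended on leaving out any of 10 libraries, with adjusted p between 0.013 and 0.094.

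Some antioxidant genes showed a change of direction between labels. Slc7a11, the cystine importer, stood at 12.3, 9.08 and 11.6 CPM in knockout beta libraries, against 5.28, 4.87 and 7.31 CPM in knockout non-beta libraries. In control libraries it was lower in beta cells, at 1.27 to 2.23 CPM in beta and 3.56 to 6.42 CPM in non-beta cells. The contrasts were 0.88 in knockout and −1.61 in control fractions (edgeR adjusted p = 0.012 and 0.00069), with a difference of 2.53 (0.0068), and the knockout call ended at 0.052 without knockout non-beta library 1. Nqo1, a quinone reductase, changed in the same manner, with 1.34 in knockout and −0.97 in control fractions (difference 2.35, edgeR adjusted p = 0.0068).

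Cat, the catalase gene, had contrasts of 0.79 in knockout and −1.03 in control fractions (difference 1.85, edgeR adjusted p = 0.0018). Gclc, the catalytic subunit of glutamate-cysteine ligase, lay at 0.35 in knockout fractions, which was not called (edgeR adjusted p = 0.091), and at −0.99 in control fractions (difference 1.37, 0.0051). It passed in the knockout fractions without knockout non-beta library 3 (0.013). Of 10 genes of glutathione synthesis and reduction, 6 were called higher and 2 lower in knockout beta cells, with a median of 0.54. All tested genes gave 19.1% higher and 23.5% lower. In control beta cells none of the 10 was called higher and 4 were called lower, with a median of −0.04. G6pdx, which supplies NADPH, was the one NRF2 target with a negative difference (−0.86, edgeR adjusted p = 0.024), at −0.55 in knockout and 0.34 in control fractions. That call ended without any of 5 libraries, which were control beta 1, control non-beta 2, knockout beta 1 and 2 and knockout non-beta 1, with adjusted p up to 0.081. It ended as well without both knockout libraries numbered 3.

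Thioredoxin and peroxiredoxin genes other than Txnrd1 were mixed. Of 20 tested, 9 were called higher and 5 lower in knockout beta cells, with a median of 0.06. Over all tested genes 19.1% were called higher and 23.5% lower. Srxn1 alone of these 20 differed between labels, and Txnrd1, which also did, is not on the list. Prdx4, the peroxiredoxin of the endoplasmic reticulum, fell by 2.00 in knockout beta cells and by 1.88 in control beta cells (edgeR adjusted p = 3e-05 and 8.8e-07). Txnip, the thioredoxin-binding inhibitor, fell by 2.60 (edgeR adjusted p = 0.0014), and Glrx, glutaredoxin, rose by 1.57 (5.9e-05). Of 10 genes of superoxide and peroxide removal, 3 were called higher and 4 lower, beside the same shares over all tested genes. Gpx3, a secreted glutathione peroxidase, stood at 135.3, 85.0 and 169.5 CPM in knockout beta libraries, against 5145, 4609 and 3704 CPM in knockout non-beta libraries (−5.14, edgeR adjusted p = 2e-05).

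Stress genes of protein folding were higher in knockout beta cells, as they were in control beta cells. Of 22 genes of the unfolded protein response, 14 were called higher and none lower, with a median of 0.66, beside 19.1% and 23.5% of all tested genes. Control fractions gave 19 higher and none lower, with a median of 0.95, beside 24.8% and 28.6% of all tested genes. Ero1lb, the oxidase that forms disulfide bonds in proinsulin, stood at 598, 648.9 and 575.6 CPM in knockout beta libraries, against 79.9, 82.3 and 115.4 CPM in knockout non-beta libraries (2.67, edgeR adjusted p = 2.7e-05). Control fractions gave 3.76, and the difference of −1.06 (edgeR adjusted p = 0.016) ended without knockout beta library 1 or without control non-beta library 2, with adjusted p up to 0.052. Sel1l, of the degradation complex of the endoplasmic reticulum, rose by 1.21, and Dnajb11, a cochaperone, by 0.92 (0.0011 and 0.0007).

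Of 25 genes of the integrated stress response, 14 were called higher and 2 lower in knockout beta cells, with a median of 0.49. The shares over all tested genes were 19.1% and 23.5%. In control beta cells 6 were called higher and 9 lower, with a median of 0.20, beside 24.8% and 28.6% of all tested genes. Nupr1, a stress-induced nuclear protein, stood at 1191, 998.7 and 895.4 CPM in knockout beta libraries, against 237.3, 231.7 and 281.6 CPM in knockout non-beta libraries (1.99, standard error 0.15, edgeR adjusted p = 3.6e-05). Its control contrast was 1.01, and the difference between labels was not called (edgeR adjusted p = 0.18). Trib3, a pseudokinase, rose by 1.73 (4.6e-05) and Ddit3, the factor CHOP, by 1.45 (0.00019). The count of Ddit3 is uncertain because a second identifier carries the same symbol. Gdf15, a stress hormone, was lower in knockout beta cells by a smaller margin than in control beta cells, at −0.54 against −2.16 (difference 1.66, edgeR adjusted p = 0.0045). The knockout call of Gdf15 ended without knockout beta library 3 or knockout non-beta library 1, with adjusted p up to 0.084.

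Of 9 genes of class I antigen presentation, 5 were called lower and none higher in knockout beta cells, with a median of −0.57, against none lower and 2 higher in control beta cells. Over all tested genes 23.5% were lower and 19.1% higher in knockout beta cells, and 28.6% lower and 24.8% higher in control beta cells. The 2 higher in control beta cells thus lie near that background. B2m, the light chain, stood at 182.3, 205.8 and 205.8 CPM in knockout beta libraries, against 372.3, 428.6 and 383.1 CPM in knockout non-beta libraries (−1.03, edgeR adjusted p = 0.0003). The control contrast was −0.24 (edgeR adjusted p = 0.25), and no member of the list differed between labels at the threshold. H2-Q6, a class I gene outside the list with close paralogs, did, at 5.25, 3.17 and 6.32 CPM in knockout beta libraries, against 51.4, 48.4 and 42.9 CPM in knockout non-beta libraries (−3.30, against −1.28 in control fractions). The difference of −2 (edgeR adjusted p = 0.021) ended without control non-beta library 2 or knockout beta library 1, with adjusted p up to 0.073.

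Genes with the most positive difference between labels included some that control beta cells barely express. F2r, the thrombin receptor (chromosome 13, 95601803 to 95618487, − strand, GRCm38), stood at 3.12, 2.76 and 3.68 CPM in knockout beta libraries, against 18.18, 11.32 and 18.02 CPM in knockout non-beta libraries. In control libraries it lay at 0.215 to 0.621 CPM in beta and 17.2 to 23.1 CPM in non-beta cells. The contrasts were −2.35 in knockout and −5.73 in control fractions, and the difference of 3.42 (standard error 0.37, edgeR adjusted p = 0.0015) passed on each single omission. Markers of endothelial cells, which also express F2r, summed to 12.3 to 42.1 CPM in knockout beta libraries and 12.01 to 20.82 CPM in control beta libraries. In knockout beta libraries 1, 2 and 3 that sum was 12.3, 12.5 and 42.1 CPM, and the part of endothelial RNA in the level of F2r was not tested.

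Pde2a, a phosphodiesterase, was separated by −5.19 in knockout and −7.77 in control fractions (difference 2.61, edgeR adjusted p = 0.012), but 64.3% of its exon bases are shared with another gene. With replicate number as a block its difference was not called (edgeR adjusted p = 0.071). Filip1l, a filamin-interacting protein, and Slc7a3, a carrier of cationic amino acids, gave differences of 3.01 and 2.94 (0.036 and 0.026). Their calls ended on leaving out any of 10 and any of 7 libraries, with adjusted p up to 0.10 and 0.081. In the knockout fractions alone Slc7a3 lay at −1.35 (edgeR adjusted p = 0.021), which ended at 0.051 without knockout non-beta library 2. Ugt1a6a, a glucuronosyltransferase, gave 2.55 (0.014), with 50.3% of its exon bases shared within its gene cluster.

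Genes with the most negative difference included some that stood high in control beta cells and lower in the other 3 groups. Col6a3, a collagen VI chain (chromosome 1, 90765923 to 90843971, − strand, GRCm38), stood at 0.926, 0.965 and 1.40 CPM in knockout beta libraries, against 1.53, 1.52 and 2.29 CPM in knockout non-beta libraries. In control libraries it was at 12.2 to 19.0 CPM in beta and 0.696 to 3.30 CPM in non-beta cells. It was thus higher in control beta than in control non-beta cells (2.88), a contrast not found in knockout fractions (−0.72, edgeR adjusted p = 0.10), and the difference was −3.57, with a standard error of 0.58 (edgeR adjusted p = 0.013). Meltf, a membrane-bound transferrin relative, stood at 13.28, 14.01 and 16.29 CPM in knockout beta libraries, against 2.44, 2.13 and 2.45 CPM in knockout non-beta libraries (2.60, against 4.46 in control fractions). Its difference of −1.83 (edgeR adjusted p = 0.0038) and that of Col6a3 passed on each single omission.

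Fmo1, a flavin monooxygenase, rose by 2.10 in knockout and by 4.51 in control fractions (difference −2.38, edgeR adjusted p = 0.019). The call ended without control non-beta library 2, knockout beta library 1 or knockout non-beta library 3, with adjusted p up to 0.062. Cdh7, a cadherin, and Gria3, a glutamate receptor subunit of alpha cells, gave −2.06 and −1.83 (0.036 and 0.037), each ending on leaving out any of 9 libraries, with adjusted p up to 0.11. Cdh7 was higher in beta cells under both labels, by 1.95 in knockout and 4.04 in control fractions. The adhesion molecule Icam1 (−2.09, 0.030) and the interferon-induced AW112010 (−2.14, 0.031) ended on leaving out any of 7 and any of 9, with adjusted p up to 0.10 and 0.11. Of the exon bases of Icam1, 11.7% are shared.

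**Figure D5:**
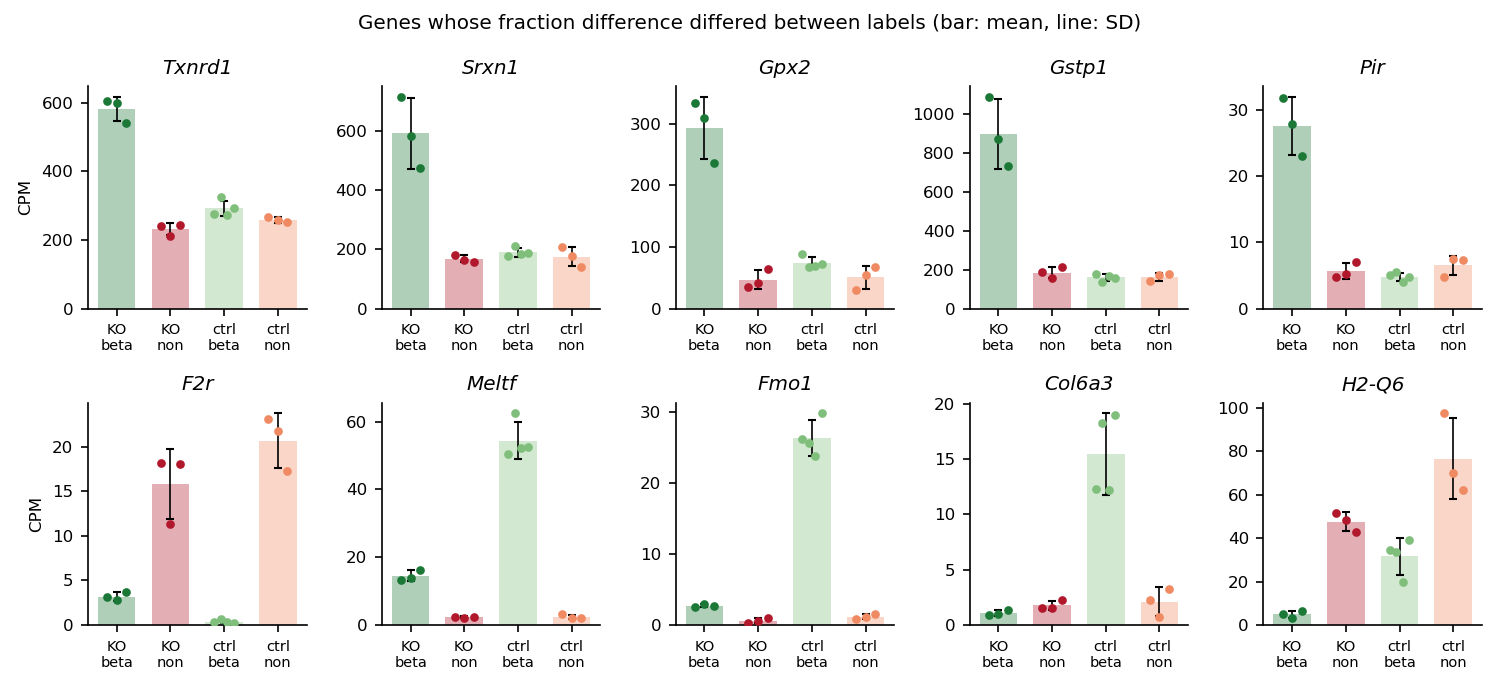
Level in CPM of 10 genes whose fraction difference differed between labels, for knockout beta, knockout non-beta, control beta and control non-beta libraries from left to right, where points are libraries, bars are means and lines are standard deviations. Txnrd1, Srxn1, Gpx2, Gstp1 and Pir are highest in knockout beta cells, whereas Meltf, Fmo1 and Col6a3 are highest in control beta cells.

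Ptpn14, Bend6 and Areg were called in opposite directions with at least 2-fold in both contrasts, higher in beta cells of knockout islets and lower in beta cells of control islets. They were singled out after their values were seen. Ptpn14, a tyrosine phosphatase of Hippo signalling, stood at 9.16, 5.63 and 4.56 CPM in knockout beta libraries, against 3.84, 2.50 and 2.51 CPM in knockout non-beta libraries (1.07, edgeR adjusted p = 0.019). In control libraries it was at 0.230 to 0.858 CPM in beta and 2.42 to 4.80 CPM in non-beta cells (−2.70, edgeR adjusted p = 0.00056). The difference of 3.81 (0.0093) passed on each single omission, although the knockout call ended without knockout beta library 1 or knockout non-beta library 2, with adjusted p up to 0.073.

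Bend6, a nuclear protein of Notch signalling, gave 1.87 in knockout and −1.42 in control fractions at levels below 2 CPM (difference 3.32, edgeR adjusted p = 0.030), a call that ended on leaving out any of 10 libraries, with adjusted p up to 0.080. Areg, an EGF receptor ligand, gave 1.47 in knockout and −1.15 in control fractions. Its difference was not called (2.66, edgeR adjusted p = 0.074), and passed without control non-beta library 3 or knockout non-beta library 3, with adjusted p between 0.011 and 0.18. The knockout call of Areg (edgeR adjusted p = 0.041) ended on leaving out any of 4 of the 6 knockout libraries, and its contrast was 2.22 without knockout non-beta library 3.

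The authors' deposited table of the same comparison lists 11583 genes, of which 4745 have a false discovery rate below 0.05, 2276 higher and 2469 lower in knockout beta cells. Of these 4745 genes in the authors' deposited table, 4179 (88.1%) were called here in the same direction. The largest gap between the log2 fold changes of the authors' deposited table and those given here was 0.12.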

How the data were processed

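RNA-seq counts of sorted islet cells were analysed in 13 libraries. The submitters' processing notes name FastQC, STAR, edgeR and the build GRCm38.p6, without versions or roles. The counting program, strand setting and annotation release are not given in the sources used here. The authors deposited raw counts for 55421 genes and RPKM values, and the RPKM served only to set genes of different length side by side. The authors' deposited comparison table gives log2 fold changes, p-values and false discovery rates.

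Low counts were removed by filterByExpr and libraries scaled by TMM, using edgeR 4.0.16 and limma 3.58.1 under R 4.3.3. The quasi-likelihood test of edgeR with Benjamini-Hochberg adjustment at 0.05 was run on the 6 knockout libraries, on the 7 control libraries, and on all 13 for the difference between labels. Standard errors come from the F statistic. A count of 3 corresponds to 0.0777 to 0.108 CPM per library, for counting error only. The steps were tested on simulated data, and DESeq2 1.42.0 was an alternative.

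The members and the 25 gene lists (299 genes) were chosen with earlier results of these data known. Named genes were Txnrd1, the 12 largest rises and falls above 10 CPM without overlap, the hormone and factor list members (some are not reported here), the 4 smallest adjusted p of each other list, and the 8 most positive and negative label differences. Further list members, and Ptpn14, Bend6 and Areg, were named after their values were seen. Coordinates come from the GENCODE annotation of GRCm38, and promoters from RefSeq.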

Additional observations from a re-analysis of the deposited data

Results flagged for a closer look

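The beta over non-beta contrast on the log2 scale differed between the knockout and control labels for the following named genes, by edgeR's test of the difference over all 13 libraries at an adjusted p below 0.05. Each value is the knockout contrast minus the control contrast.

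Among antioxidant and detoxification genes the difference was Hmox1 2.817 (standard error 0.568), Pir 2.717 (standard error 0.28), Gstp2 2.597 (standard error 0.457), Ugt1a6a 2.547 (standard error 0.421), Slc7a11 2.526 (standard error 0.358) and Nqo1 2.348 (standard error 0.332). It was Gstp1 2.308 (standard error 0.22), Gpx2 2.092 (standard error 0.358), Cat 1.85 (standard error 0.206), Srxn1 1.703 (standard error 0.213), Gclc 1.374 (standard error 0.184), Ephx1 1.184 (standard error 0.236) and Txnrd1 1.15 (standard error 0.132). G6pdx, which supplies NADPH, had the opposite sign at −0.856 (standard error 0.159).

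Among other genes with a more positive contrast in knockout cells it was Ptpn14 3.812 (standard error 0.571), F2r 3.415 (standard error 0.367), Bend6 3.319 (standard error 0.65), Filip1l 3.012 (standard error 0.61), Slc7a3 2.939 (standard error 0.552), Pde2a 2.605 (standard error 0.408) and Gdf15 1.657 (standard error 0.212).

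The contrast was less positive in knockout cells for Pcx −0.854 (standard error 0.156), Slc30a8 −0.968 (standard error 0.208), Ero1lb −1.056 (standard error 0.182), Meltf −1.829 (standard error 0.226), Cdh7 −2.057 (standard error 0.418) and Fmo1 −2.376 (standard error 0.422). It was also more negative for Slc7a2 −1.097 (standard error 0.223), Gria3 −1.832 (standard error 0.374), H2-Q6 −2 (standard error 0.361), Icam1 −2.091 (standard error 0.409), AW112010 −2.144 (standard error 0.422) and Col6a3 −3.573 (standard error 0.577). The call of Slc30a8 ended on leaving out any of 11 libraries and that of Slc7a2 on leaving out any of 8.

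In the control beta group of 4 libraries, 1 library stood apart for Filip1l, with a gap to its nearest neighbour of 0.9083 of the whole range, and 1 for Hmox1, with 0.8738. Chance gives such a gap in about 1 in 20 groups. The gap was looked for in all 33 named genes with a called label difference and in Areg, so some such gaps come up by chance.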

How the results depend on the processing

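No called result reversed under the alternatives run. The label difference of Mnx1, not called with all libraries (−1.316), was 1.972 and called without both libraries numbered 3, and ran from −1.861 to 1.949 with 1 library left out. Those of Ins1, Ins2 and Ucn3 also turned positive without both (1.24, 1.10 and 0.54) but were not called either way. Without both libraries numbered 3 the label differences of Pcx, G6pdx, Slc30a8, Filip1l, Slc7a3, Fmo1, Cdh7 and Bend6 were no longer called. DESeq2 gave Ucn3, Sytl4, G6pc2, Prss53 and Tmem215 knockout contrasts of 3.92 to 4.51 but no adjusted p, so their calls rest on edgeR. The counts of the knockout and of the control comparison stayed within 1.5 times. With single libraries left out, the knockout comparison called between 6277 genes (without knockout non-beta replicate 1) and 8752 (without knockout non-beta replicate 3). It called 8251 with DESeq2, 7605 with library totals only and 7066 with the stricter filter. The knockout comparison called 8543 without a filter and 9565 with all 13 libraries in the fit, the largest count. Library totals only gave 85.3% of the label differences as positive, against 65.9% with TMM, and a median of all genes of 0.132. They gave 36.0% of control calls as higher in beta cells, against 46.5% with TMM, with a median of all genes of −0.146.

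The count of label differences depended on the choices. DESeq2 called 557, 315 positive and 242 negative, of which 181 and 108 were at least 2-fold. Library totals only called 192 positive and 33 negative, and without a filter 65 were negative and at least 2-fold. With 1 library left out the count ran from 62 (without control non-beta replicate 2) to 289 (without control non-beta replicate 3). Positive ones ran from 46 to 191 and negative ones from 16 to 98, or from 40 to 133 and from 12 to 61 at 2-fold or more. The cause was not tested.

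A replicate block gave 50 label differences, 36 positive and 14 negative, of which 34 and 12 were at least 2-fold, and 7877 calls in the knockout comparison. Of 33 named genes with a called label difference 17 were called under it. The other 16 had adjusted p between 0.056 and 0.17 (AW112010, Bend6, Cdh7, Ephx1, Ero1lb, Filip1l, Fmo1, G6pdx, Gpx2, H2-Q6, Icam1, Pcx, Pde2a, Slc30a8, Slc7a2 and Slc7a3). Same-numbered knockout libraries of the 2 fractions correlated by 0.113, 0.143 and 0.055 in their deviations from the group means, and control ones by 0.132, 0.074 and 0.267. Each knockout library correlated best with its own number, and so did control beta libraries 2, 3 and 4. Control non-beta library 3 correlated best with control beta library 1 (0.179). In knockout libraries 1, 2 and 3, Ddx3y stood at 12.04, 10.43 and 16.53 CPM in beta cells. It stood at 11.14, 7.40 and 19.78 CPM in non-beta cells, in the same order. Control libraries 2, 3 and 4 had 13.05, 20.39 and 10.86 CPM in beta and 12.5, 21.05 and 8.99 CPM in non-beta cells. The labels do not say that equal numbers mark the same animal or animals, and the main fits do not take numbers as pairs. Whether equal numbers mark pairs was not settled.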
